A study of Rattus norvegicus with 6 samples.

Results

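The transcripts described here are those of the ultraconserved elements, read by the 962 non-control probes of a rat array whose identifier begins with uc. They were chosen by that identifier alone, out of 24684 non-control probes, and they cover 481 numbered elements, each with 1 probe marked + and 1 marked -. RNA came from rat pancreas. Control animals were compared with animals in which acute pancreatitis (AP) had been induced by retrograde injection of 4% sodium taurocholate, a bile salt, into the pancreatic duct at 1 mL/kg. Per the labels all were male rats of 6 weeks, and AP pancreas was taken at 9 h; whether control animals had a sham operation is not given there. The 3 control and 3 AP scans were 1-colour readings of Cy3-labelled RNA.

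Ultraconserved elements are stretches of DNA that are identical in human, mouse and rat. Many lie near genes for developmental transcription factors, where some act as enhancers, and others overlap exons of genes for RNA-binding and splicing proteins, where some contain poison exons that lower the host's mRNA. Transcripts from the elements, also called T-UCRs, are long noncoding RNAs that have been studied mostly in tumours, and such transcripts can come from either strand. The files do not state what the + and - signs mean, nor give positions or sequences of the elements, so members are named by number and sign.

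Only 4 independent arrays lay behind the 6 scans. Among probes with 3 or more spots, the deviations of spots from their probe's mean correlated with r = 0.9929 between control 2 and control 3 and with r = 0.9919 between AP 2 and AP 3, against 0.1994 to 0.7406 in the other pairs (across 1634 spots of 604 probes, which are not independent replicates). Scans 2 and 3 of each group were therefore averaged as rescans of 1 array, and p-values below measure the spread between 2 arrays per group. The 75th percentile of signal was 141 to 148 in the control scans and 70.4 to 78.1 in the AP scans. Relative values below are log2 signals minus this percentile, and the step raised AP against control by 0.96 on the log2 scale (the shift between groups before scaling was -0.959). No spot was saturated. Probes of pancreatic acinar enzymes were well above background on every scan for 11 of 12 genes, which shows that acinar RNA was present in both groups and nothing of its share.

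Most uc. transcripts were near or below the detection limit in pancreas. A probe was counted as detected on a scan where the scanner software called it well above background. Of the 962 probes, 617 (64.1%) were detected on no scan, 145 (15.1%) on all 6 scans, 34 on every control and no AP scan, and 3 on every AP and no control scan. A further 83 were detected on control 1 alone. The control-only, AP-only and control 1 patterns made up 3.53%, 0.312% and 8.63% of uc. probes. They made up 6.23%, 0.293% and 10.6% of the other noncoding probes described below, and 7.35%, 0.45% and 7.16% of coding probes. In the control scans 321, 236 and 224 uc. probes were detected, which is 33.4%, 24.5% and 23.3%. In the AP scans the numbers were 169, 191 and 180, or 17.6%, 19.9% and 18.7%. Every AP scan thus lay below every control scan, and control 1 stood above its own group. With 2 arrays per group, that number sets how precise these shares can be.

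The same fall in detection was seen in the other classes, at higher levels. The other noncoding probes numbered 6136, with identifiers beginning MRAK (3588), MRuc (685), XR (1702), another MR form (134) or NR (27). Counted as detected when any of their spots was, they reached 44.5% to 56.9% in control and 35.9% to 37.8% in AP. Spots per probe differed by design: every uc. probe had 1 spot, whereas all other noncoding probes had 3 spots apart from 4 with 10. Read from 1 spot each, the other noncoding probes were detected at 37.7% to 49.7% in control and 29.6% to 32.2% in AP. Coding probes, nearly all with 1 spot, were detected at 61.6% to 70.1% and 52.1% to 54.0%. With 1 spot on both sides the gap between uc. and other noncoding probes was smaller, and it remained on all 6 scans.

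**Figure D1:**
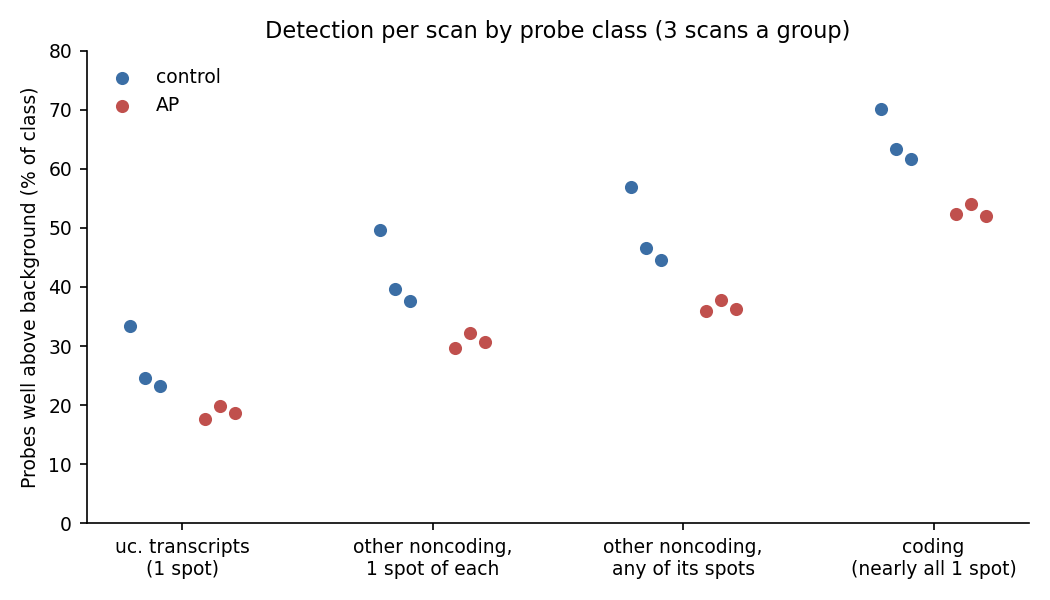
Percent of probes well above background (vertical axis) for the uc. transcripts, other noncoding probes read from 1 spot or from any spot, and coding probes; each point is 1 scan, 3 control and 3 AP, and scans 2 and 3 of a group are rescans of 1 array. The uc. points lie between 17.6% and 33.4%, below the points of every other class in the same group.

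Over all uc. probes the median processed signal was 4.08 to 9.05 in control and 4.14 to 4.75 in AP, in scanner units. Among detected uc. probes it was 39.1 to 48.4 in control and 46.5 to 59.1 in AP. The highest uc. signals on a scan were 47800 to 55500. A small number of bright members thus stood far above a body of dim ones. The filter kept probes detected on at least 3 of 6 scans, and 229 uc. probes (23.8%) passed it against 44.6% of other noncoding and 62.3% of coding probes. The other 733 uc. probes were not tested. Of those that passed, 45 did so with exactly 3 scans, and 26 members that failed had 2 scans.

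Among the 229 tested members, 78 rose in AP and 9 fell after scaling (limma, adjusted p below 0.05), and 142 did not pass the test. Of all 13684 probes tested 52.9% were called, 25.9% higher and 27.0% lower in AP. For the members the shares were 38.0%, 34.1% and 3.93%. The median log2 fold change of AP minus control was 0.53 (quartiles 0.08 and 1.03) over members and 0.08 over all probes tested, and it was the same over members with undetected groups set at their bound. Of the 229, 180 (78.6%) lay above 0 and 49 below. The share above 0 was 53.6% over all probes tested and 63.7% over other noncoding probes. Fewer members were called with any 1 array left out. Their median log2 fold change was then 0.67 without control 1, 0.37 without the second control array, 0.61 without AP 1 and 0.44 without the second AP array. Because a dim probe passes the filter through the group in which it is bright, the members detected on all 6 scans were also fitted alone. There 82 of 145 were called (56.6%, against 61.5% of all probes so filtered), 78 higher and 4 lower, with a median of 0.76. Of all probes so filtered 33.7% were higher and 27.8% lower, with a median of 0.18. For other noncoding probes the shares were 41.4% and 17.2%, with a median of 0.42. This filter drops probes that fell below detection in AP, so it favours rises in every class and does not remove the effect of filtering.

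Most of this direction rests on the scaling. Without scaling between arrays, 19 members were higher in AP and 67 lower, and their median was -0.43. All probes tested had a median of -0.87 without scaling, 63.1% were called, 5.58% higher and 57.5% lower. All 19 were also higher with scaling, and the 9 members that fell with scaling were called lower without it as well. Of the 78 rises, 57 were not called without scaling, and 2, uc.345- and uc.356-, were called lower. On either scale the members' median lay above that of all probes. With normexp correction of the median spot signal, which damps changes of dim probes, 26 members were higher and 0 lower in limma (3 lower at an unadjusted p below 0.05), against 18.1% of all probes called, 6.28% higher and 11.8% lower. The authors' deposited normalized values gave 80 higher and 8 lower, against 51.2% of all probes called, and 76 members were called in both.

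**Figure D2:**
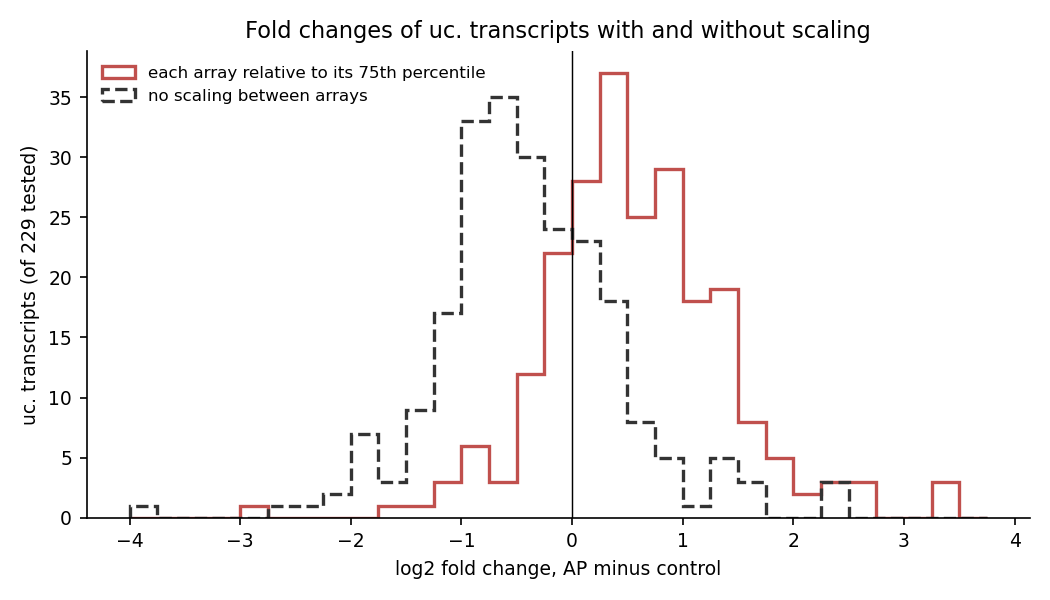
Number of uc. transcripts (vertical axis, of 229 tested) by log2 fold change of AP minus control (horizontal axis, bins of 0.25), with each array relative to its 75th percentile (solid) and with no scaling (dashed). The median moves from 0.53 to -0.43.

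The rise of uc.275- was the largest. Its signal was 53.9, 57.4 and 54.8 in control scans 1 to 3 and 330, 284 and 288 in AP scans 1 to 3. No AP scan came near a control scan, and the log2 fold change was 3.44 ± 0.10 (SE, 2 arrays per group), a 10.8-fold rise with an adjusted p of 0.000828. For uc.263+ the control signals were 41.3, 27.7 and 23.4 and the AP signals 165, 176 and 178. That is a 10.2-fold rise (log2 3.36 ± 0.27, adjusted p 0.00318), with control 1 the highest of the controls. For uc.308- the signals were 276 to 318 in control and 828, 828 and 882 in AP, a 5.48-fold rise (log2 2.45 ± 0.12, adjusted p 0.00131). This member was bright in both groups, so its change does not rest on a group near background. For uc.48+ the signals were 34.8, 32.5 and 35.7 in control and 93.0, 85.5 and 92.2 in AP, with groups clearly apart and a 5.12-fold rise (adjusted p 0.00102). These 4 rises were also called without scaling, with log2 fold changes of 2.48, 2.40, 1.5 and 1.40.

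Members that were detected in AP and in no control scan were uc.2+, uc.222- and uc.266-, the last of these outside the naming rule. The signals of uc.2+ were 9.09, 10.9 and 10.6 in control and 52.5, 46.5 and 45.6 in AP. Since it was not well above background in control, its rise is given as at least 9.67-fold (adjusted p 0.00113). The control level taken was the probe's own signal or, if higher, the dimmest signal that the software still called well above background on that array. For uc.2+ this left the measured change as it was (log2 3.27). Such bounds, here and below, make no allowance for the spread between arrays. For uc.222- the signals were 9.33, 6.63 and 5.33 against 23.5, 21.6 and 21.7, a rise of at least 5.69-fold (adjusted p 0.00434). For uc.266- they were 14.0, 14.4 and 16.7 against 24.2, 27.7 and 28.3, at least 3.43-fold (adjusted p 0.00413). These 3 were picked by that pattern and passed the filter through AP alone, so groups that do not overlap are no further support. Each was also called higher without scaling, which the same choice favours.

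The remaining 2 of the 8 largest rises were detected on 1 control scan and all AP scans. For both, the AP scans alone were enough for the filter, a choice that favours a rise. The signals of uc.93- were 16.4, 20.9 and 19.5 in control and 52.8, 49.2 and 66.3 in AP (log2 2.55, adjusted p 0.00237). Those of uc.241+ were 16.3, 5.99 and 7.15 in control and 35.3, 23.7 and 21.5 in AP (log2 2.41 ± 0.52, adjusted p 0.0267). In each, 1 of the 2 control arrays measured the probe above background, so no fold is given. The control arrays of uc.241+ differed widely: its log2 fold change was 3.05 without control 1 and 1.77, not called, without the second control array, nor was it called without either AP array. It was also not called without scaling (log2 1.45, adjusted p 0.0793). Over all 78 rises the fold ran from 1.33 to 10.8, with a median log2 of 1.14; 49 exceeded 1 on the log2 scale and 9 exceeded 2.

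Higher signal in AP under every one of 4 treatments of the data (scaled, unscaled, deposited values and normexp) was called for 16 members. Besides uc.2+, uc.48+, uc.93-, uc.222-, uc.263+, uc.266-, uc.275- and uc.308-, they were uc.102+, uc.115-, uc.123+, uc.159+, uc.212+, uc.258-, uc.325- and uc.473+. Among the latter, uc.473+ had signals of 327, 309 and 319 in control and 795, 761 and 757 in AP, a 4.71-fold rise (adjusted p 0.00108). The signals of uc.102+ were 183, 178 and 186 against 306, 287 and 302, and those of uc.212+ were 185, 140 and 150 against 264, 284 and 289. In both the unscaled signals alone were higher in every AP scan than in any control scan. The 4 treatments reuse the same 4 arrays. Some of the 16, among them uc.2+, uc.93-, uc.222- and uc.266-, met the filter through the AP scans. How many of all probes were higher under all 4 treatments was not counted, so the 16 do not set members apart.

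The largest fall was that of uc.75-. Its signals were 157, 162 and 163 in control and 14.2, 8.45 and 6.78 in AP, and no AP scan reached detection. It was at least 7.92-fold lower in AP (adjusted p 0.00512), and it was the only one of the falls to start from a signal above the 75th percentile of its arrays and end below detection. The falls of uc.472-, uc.408-, uc.181+, uc.379+ and uc.1- likewise went from detection on all control scans to none in AP, with control signals between 19.3 and 37.6 and AP signals between 3.47 and 11. As bounds they were at least 2.29-fold, 1.87-fold, 2.08-fold, 1.94-fold and 1.61-fold lower, with adjusted p from 0.0138 to 0.0393. Like uc.75-, these 5 passed the filter through the control scans alone, a choice that favours a fall. All 5 were close to background even in control, and with normexp correction their log2 fold changes were positive, 0.23 to 0.37, and not called.

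Falls within the detected range were seen for uc.459-, uc.47- and uc.154+. The signals of uc.459- were 83.1, 93.7 and 98.2 in control and 24.2, 27.9 and 27.1 in AP, a log2 fold change of -0.84 ± 0.17 (adjusted p 0.023). Those of uc.47- were 304, 271 and 273 against 91.1, 98.7 and 101, or -0.64 ± 0.13 (adjusted p 0.0257). The ninth fall, uc.154+, outside the naming rule, went from 392, 392 and 402 to 164, 138 and 147, or -0.41 ± 0.10 (adjusted p 0.0375). The 3 were detected on all 6 scans with groups well apart.

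**Figure D3:**
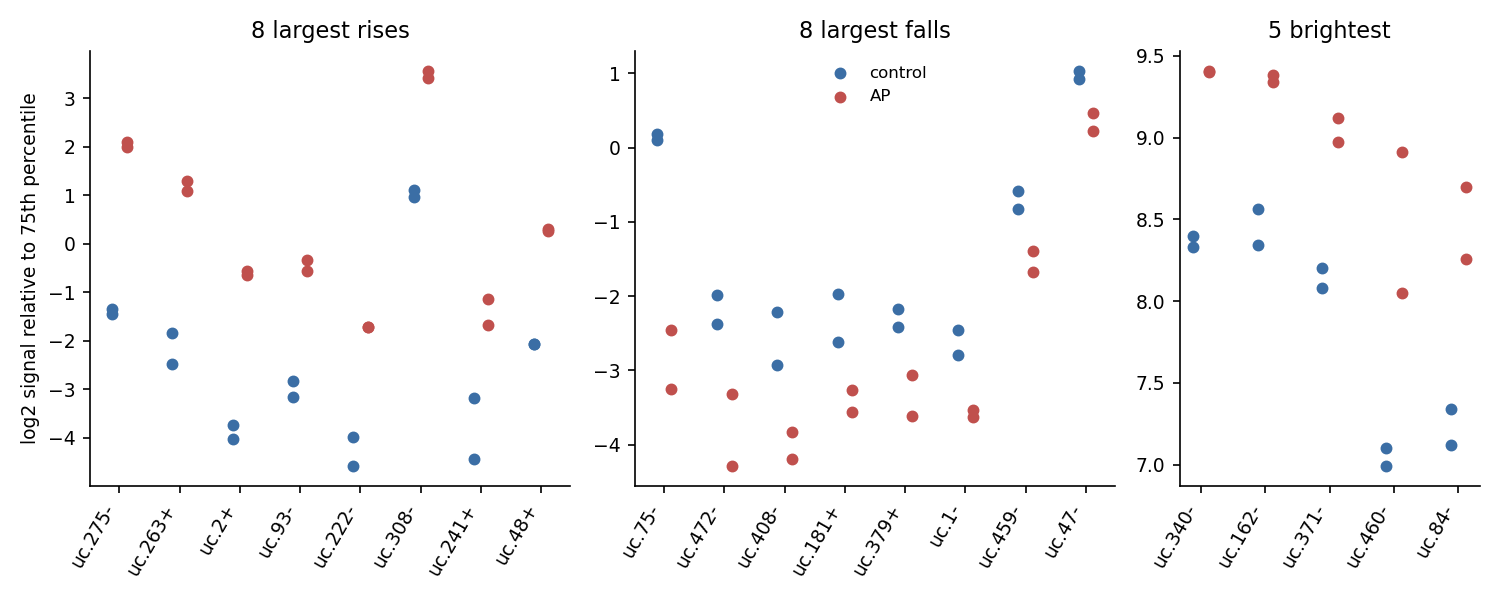
Log2 signal relative to the array's 75th percentile (vertical axis) of the 8 largest rises, the 8 largest falls and the 5 brightest uc. transcripts; each point is 1 of 2 arrays per group, with control in blue and AP in red. In every member the 2 AP arrays lie on one side of the 2 control arrays. For the rises and falls this is favoured by their choice as the largest called changes. Of the 229 tested members, 134 had AP arrays above control arrays and 27 below. In the brightest 5 the group means differ by 0.90 to 1.43, and scaling shifts this by 0.96.

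The brightest 5 members, uc.340-, uc.162-, uc.371-, uc.460- and uc.84-, all were - probes, and all were called higher in AP after scaling, while their unscaled log2 fold changes were -0.06 to 0.49. The signals of uc.162- were 55500, 45800 and 46900 in control and 51700, 47200 and 46300 in AP; its groups overlap, and its log2 fold change was 0.91 with scaling (adjusted p 0.00882) and -0.05 without (adjusted p 0.808). For uc.340- they were 47500, 47800 and 48900 against 52600, 49400 and 48500, or 1.04 with scaling (adjusted p 0.00404) and 0.08 without. For uc.371- they were 39800, 42000 and 42300 against 43100, 35800 and 36300, or 0.90 (adjusted p 0.00797) and -0.06. With the deposited values these 3 gave 0.09, 0.25 and 0.12, none called. For uc.84- a spot mark removed AP 3, and the signals were 20500, 21800 and 24600 in control and 23800 and 29300 in AP (log2 1.25 with scaling, adjusted p 0.0136, and 0.28 without). For uc.460- a mark removed control 3, and the signals were 18700 and 19300 against 20600, 33700 and 35600 (1.43, adjusted p 0.0324, and 0.49). None of the 5 was called without scaling.

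At similar signal, a smaller share of members than of other noncoding probes fell in AP. Noncoding probes were split into 4 signal classes at the quartiles of mean log2 signal, -2.21, -1.12 and 0.63. From the dimmest class to the brightest, 48, 79, 57 and 45 members were tested, and 22.9%, 25.3%, 45.6% and 66.7% were called. The same shares were 29.6%, 39.6%, 57.0% and 65.3% in the other noncoding probes, whose values are mostly means of 3 spots against 1 for members. Members called higher made up 12.5%, 24.1%, 43.9% and 62.2% of each signal class, against 11.7%, 27.5%, 34.2% and 45.8% of the others. Members called lower were 5, 1, 1 and 2 in number, or 10.4%, 1.27%, 1.75% and 4.44%, against 17.9%, 12.1%, 22.8% and 19.5%. Of the 9 falls, 6 were members detected on control scans alone, and in the dimmest class 0.0% of members and 7.5% of the others were detected on all scans. Among probes detected on all 6 scans, 2.76% of 145 members and 17.2% of 1918 other noncoding probes were called lower. The difference between the classes was not tested.

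The median log2 fold change of members was 0.28, 0.37, 0.62 and 1.04 over these classes. In the other noncoding probes it was 0.00, 0.32, 0.27 and 0.51. Without scaling the members' medians were -0.67, -0.58, -0.33 and 0.08, and those of the others -0.96, -0.63, -0.69 and -0.45. Probes named MRuc, the class nearest in name, had scaled medians of 0.07, 0.44, 0.34 and 0.61, and MRAK probes 0.03, 0.34, 0.31 and 0.70. In the brightest class, then, the unscaled signal of the median uc. member was about the same in both groups while that of the other noncoding probes was lower in AP.

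**Figure D4:**
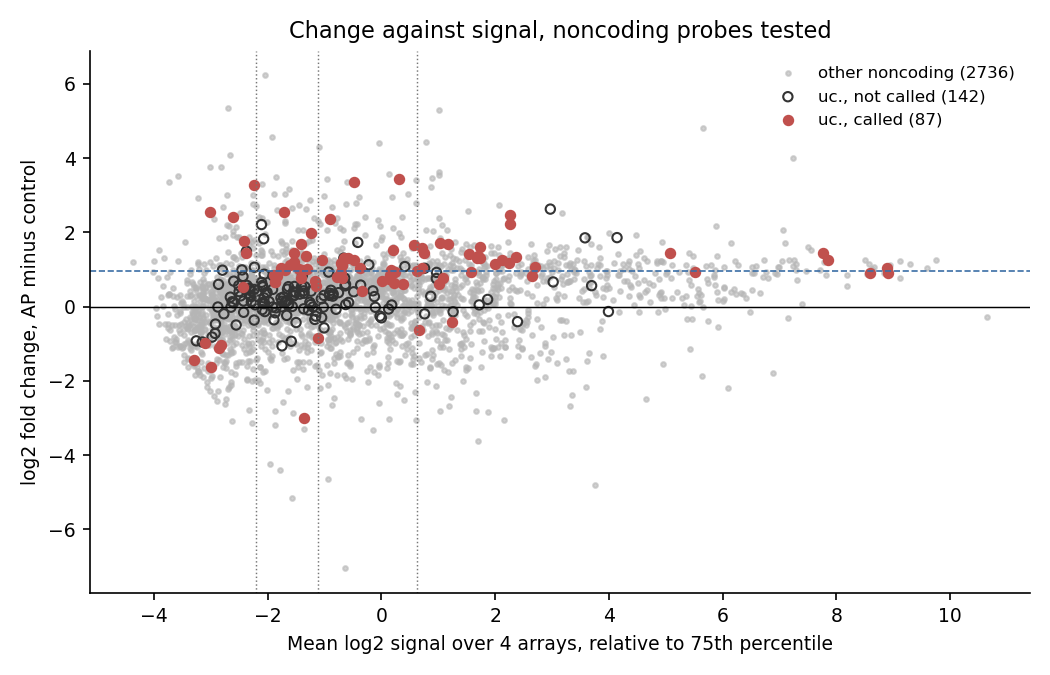
Log2 fold change of AP minus control (vertical axis) against mean log2 signal over 4 arrays relative to the 75th percentile (horizontal axis), for 2736 other noncoding probes (grey) and 229 uc. transcripts (filled where called, open where not). Dotted lines mark the signal classes, and the dashed line marks the 0.96 that scaling adds to a probe with equal raw signal in both groups; the 5 brightest members lie near or above it, between 0.90 and 1.43.

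The spread between arrays was compared with and without the extra spots of the other noncoding probes. The median SD between arrays of a group was 0.234 for members and 0.162 for other noncoding probes. Read from 1 spot each, the other noncoding probes had 0.230, and their called share went from 48.0% to 39.4%, with members at 36.2% in that fit. With detection also taken from 1 spot, 44.7% of 2364 other noncoding probes and 36.7% of members were called, against 51.5% of all probes. The median SD there was 0.194 for the other noncoding probes and 0.233 for members. Over 4 signal classes cut anew for that fit, from dimmest to brightest, it was 0.316, 0.226, 0.198 and 0.174 for members. For the others it was 0.36, 0.246, 0.132 and 0.126, so members varied more in the brighter classes and less in the dimmer. In that fit 75 members were higher and 9 lower, while other noncoding probes had 26.6% higher and 18.1% lower. With equal spots the share of falls among members thus stayed lower, and the gap in called share was smaller. Coding probes, almost all with 1 spot, had a median SD of 0.138 and 54.8% called in the main fit. Their SD there was 0.334 in the dimmest signal class and 0.0921 in the brightest, against 0.338 and 0.184 for members.

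Either sign was measured about equally often, with 121 of the + probes (25.2%) and 108 of the - probes (22.5%) tested. Of the + probes 36 rose and 3 fell (median log2 fold change 0.47), and of the - probes 42 rose and 6 fell (median 0.55). Over all probes tested 25.9% were higher and 27.0% lower. For 29 elements both probes were tested, for 92 the + probe alone, for 79 the - probe alone, and for 281 neither. Where the + probe was tested, the - probe of the element was in 24.0% of cases, close to its 22.5% overall. Over the 29 elements the changes of both signs ran the same way in 16 and opposite ways in 13, and across them Pearson's r was -0.18 and Spearman's rho -0.20, given as a description over points that share arrays. Both probes were called in the same direction for uc.2 and uc.258, in opposite directions for none, and 1 of the pair was called in 13 elements.

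For uc.258, the + signals were 143, 89.3 and 98.5 in control and 107, 125 and 139 in AP, which overlap. The - signals were 108, 130 and 144 against 204, 181 and 201, which do not. Relative to the percentile they rose by 1.00 (adjusted p 0.0484) and 1.66 (adjusted p 0.00487), and without scaling the + probe was at 0.04. For uc.2, beside the rise of the + probe, the - probe had 36.8, 24.5 and 26.6 against 26.2, 30.1 and 28.7 (log2 0.81, adjusted p 0.0495), and -0.14 without scaling. The weaker partner in both elements thus rested on the scaling.

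The widest separation of signs was in uc.75, uc.308, uc.18, uc.473, uc.2 and uc.48. The + probe of uc.75 had 25.2, 25.2 and 23.8 in control and 20.6, 12.7 and 18.3 in AP (log2 0.47, adjusted p 0.0703), beside the -2.99 of its - probe. The + probe of uc.308 had 72.0, 49.7 and 48.6 against 23.5, 20.8 and 23.5 (log2 -0.43, adjusted p 0.168), beside 2.45. The - probe of uc.473 had 24.6, 21.7 and 19.8 against 7.67, 8.91 and 9.53 (log2 -0.47, adjusted p 0.107), beside 2.24. In uc.308 and uc.473, then, the probe of one sign rose and that of the other did not pass the test; before scaling the latter was lower in AP, as 11485 of the 13684 probes tested were. For uc.48 the - probe gave 0.30 (adjusted p 0.0932) beside 2.36. In uc.18 neither was called; its - probe had 1180 on AP 1 and 5230 and 5520 on AP 2 and 3, so the AP arrays did not match. The difference between signs was not tested.

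**Figure D5:**
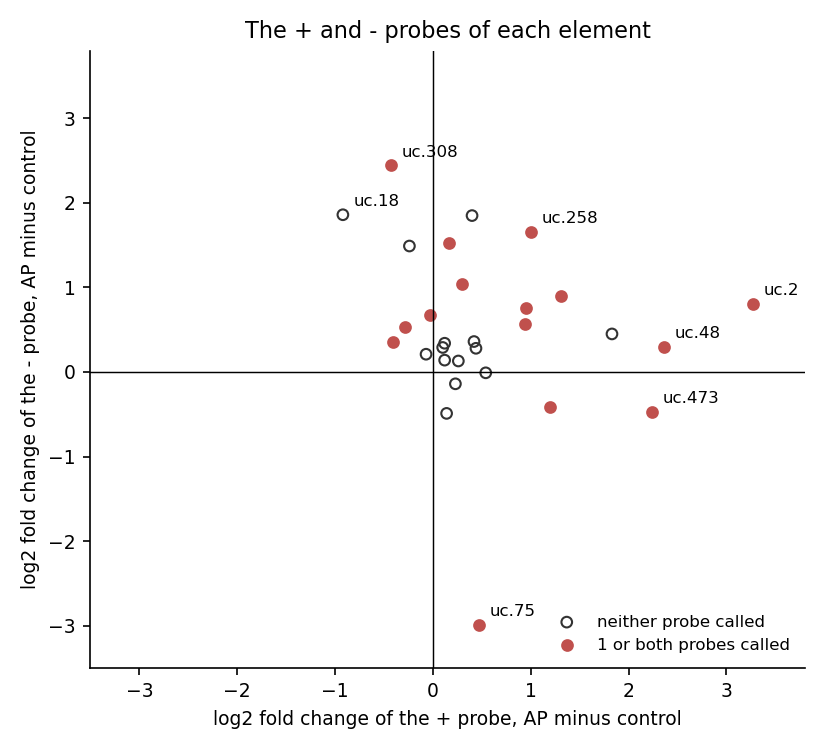
Log2 fold change of AP minus control of the + probe (horizontal axis) and the - probe (vertical axis) of the 29 elements with both tested; filled points have at least 1 called probe and 7 elements are named. The points show no common slope (r = -0.18), and uc.75 and uc.308 lie farthest from the diagonal.

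In the other elements with both probes well measured, uc.246, uc.293, uc.299, uc.340 and uc.371, changes were positive for both signs with scaling. Without scaling none was positive for both. The unscaled + and - changes were -0.52 and -0.68 in uc.246, -0.56 and 0.9 in uc.293, and -0.003 and -0.2 in uc.299. They were -0.66 and 0.08 in uc.340, and 0.35 and -0.06 in uc.371. The values below are with scaling. In uc.299 they were 0.95 for + (adjusted p 0.0196) and 0.76 for - (adjusted p 0.058), with + signals of 180, 142 and 148 in control and 150, 168 and 180 in AP, which overlap. The - probe is given on the scaled log2 axis instead, with 0.86 and 0.31 on the control arrays and 1.37 and 1.32 on the AP arrays. On that axis 134 of the 229 tested members had their AP arrays above their control arrays, so this separation was common. In uc.340 the + probe gave 0.30 (adjusted p 0.392) beside the bright - probe, and in uc.246 the 2 signs gave 0.44 and 0.28, not called. In uc.293 and uc.371, AP 1 stood apart: the - probe of uc.293 had 1090, 733 and 801 in control and 3820, 725 and 792 in AP (log2 1.85 ± 0.84, adjusted p 0.148), and the + probe of uc.371 had 47.0, 69.9 and 75.4 against 125, 39.2 and 50.1 (1.31 ± 0.57, adjusted p 0.138). The + probe of uc.293 gave 0.40 (adjusted p 0.227).

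Elements known from other tissues were detected about as often as the rest. Of the 34 probes of 17 such elements, taken from the literature whatever their result, 10 were tested (29.4%, against 23.8% of all members), 20 were detected on no scan (58.8%, against 64.1%), and 4 on 1 or 2 control scans. Neither probe was tested for 8 of the elements, among them the one in Srsf3, a splicing factor that controls its own mRNA through a poison exon, and both in Gria3, a glutamate receptor subunit. Of the 10, 2 were called, against 38.0% of all tested members, and both rested on the scaling. One was the - probe of an element silenced by methylation in human tumours, with signals of 37.5, 25.4 and 29.4 in control and 37.6, 30.8 and 39.1 in AP (log2 1.13, adjusted p 0.0126). The other was the + probe of the element in Pola1, the catalytic subunit of DNA polymerase alpha, with 40.7, 43.5 and 40.8 against 44.8, 38.7 and 44.8 (1.02, adjusted p 0.00441). The scans of the groups overlap in both, and without scaling the changes were 0.18 and 0.06, not called; the Pola1 mRNA probe was not tested.

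The remaining 8 did not pass the test, with adjusted p from 0.132 to 0.867. Among them uc.63-, from an element studied in breast and prostate tumours, had 32.8, 32.3 and 38.7 in control and 18.8, 15.7 and 21.3 in AP (log2 0.08). For uc.73+, studied in leukaemia and colorectal tumours, the signals were 33.5, 31.2 and 33.1 against 20.1, 26.4 and 27.6 (0.46). Control scans were higher than AP scans in both before scaling, and uc.63- was called lower without it (-0.88). The only negative scaled value of the 8 was that of the + probe of an element known for a role in renewal of the gut lining. Its signals were 42.3, 44.9 and 48.1 in control and 20.4, 12.9 and 18.8 in AP, where it was not detected (log2 -0.36 with scaling, adjusted p 0.132, and -1.31 without, adjusted p 0.0054).

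Where a tested element lies in a gene, host and element can be set side by side by their change, not by level; the pairing comes from general knowledge and not from the files. Pcbp2, a poly(C)-binding protein, gave -0.02 and the + probe of the element in it 0.05, with signals of 67.7, 55.3 and 51.9 against 32.6, 33.3 and 30.5. Thra, the thyroid hormone receptor alpha, rose by 0.85 (adjusted p 0.0091) and the - probe of its element gave 0.04, with signals of 166, 157 and 159 against 105, 75 and 66.6. Ogt, the enzyme that adds N-acetylglucosamine to proteins, rose by 1.37 (adjusted p 0.00226), and the + probe of its element gave 0.24, with 40.6, 23.7 and 26.8 against 19.8, 20.4 and 17.8. Without scaling Thra was at -0.11 and Ogt at 0.42. The difference between host and element was not tested.

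Genes of the 2 families near or in which such elements lie were counted from lists; over all probes tested 25.9% were higher and 27.0% lower, and the difference between the lists was not tested. Of 18 RNA-processing genes known to hold such elements 15 were tested, with 2 higher, 2 lower and 11 not called, and a median log2 fold change of 0.04. Srsf7, a splicing factor, rose by 1.46 and Clk4, a kinase of splicing factors, by 0.38; Hnrnpk and Hnrnpu, nuclear RNA-binding proteins, fell by 0.84 and 0.51. Without scaling, Clk4 was called lower (-0.58) and Srsf7 was not called (0.50, adjusted p 0.0576). Of 30 developmental transcription factor genes 7 were tested, with 5 lower, 1 higher and a median of -0.88 (the same with bounds). Of the 5, 3 were detected on no AP scan and are given as bounds: Meis1 was at least 7.44-fold, Tshz3 at least 2.06-fold and Nr2f2 at least 1.78-fold lower. The bound of Nr2f2 equals its measured change (log2 -0.83). Ebf1 fell by 1.19 and Nr2f1 by 0.88. Irx5 rose by 0.61 and was not called without scaling.

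Markers of several cell types moved between the groups as well. Of 9 lymphocyte markers 7 were tested and 6 rose (median 4.44). The summed relative signal of the 7 was 2.14 to 2.75 in control and 31.0 to 32.3 in AP. Cd79b, a subunit of the B cell receptor, was detected on no control scan and was at least 35.1-fold higher. The seventh, Cd5, was detected on every control scan and no AP scan. It was not called in limma (log2 -0.48, adjusted p 0.0503) and was called lower without scaling (-1.43, adjusted p 0.00146). Of 6 adipocyte markers 5 were tested and 3 fell (median -4.39), the sum going from 305 to 323 down to 10.2 to 10.4. Of 6 neutrophil markers 3 were tested and 2 fell, S100a8 and Csf3r; neither was detected on any AP scan, and as bounds they were at least 144-fold and 6.03-fold lower. The third, Cxcr2, was at -3.89 and 0.19 on the AP arrays, and the summed signal of the 3 was 16.0 to 17.5 in control and 0.246 to 1.28, a level near background, in AP. Of 4 erythroid markers 3 were tested, 2 lower and 1 higher, with sums of 625 to 723 and 28.8 to 29.8. Of 12 acinar markers 11 were tested and 6 rose (median 0.80), none of them called without scaling, with sums of 64.1 to 64.5 and 73.9 to 85.3. In bulk tissue fewer cells of a type and less RNA per cell cannot be told apart, and the part of these markers in the changes of the uc. transcripts was not tested. Whether tissue other than pancreas was present, or whether each scan carries the right group label, was not tested either.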

How the data were processed

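The 6 deposited scans, 3 per group by their labels, were read from the scanner tables. Per the file headers, Agilent Feature Extraction 11.0.1.1 made the authors' deposited processed signal, a linear intensity with local background subtracted and no scaling between arrays, from a design annotated on rn4. The values the authors deposited as normalized are in log2, with a nearly shared distribution and no tool named. Spots marked as non-uniform or as population outliers were dropped, the rest were averaged per probe in log2, and each array was set relative to its 75th percentile (non-control probes). A probe was kept if any of its spots was well above background on at least 3 of 6 scans.

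Rescans (2 and 3 of each group) were averaged, which left 2 arrays per group. limma 3.58.1 (lmFit, eBayes; R 4.3.3) compared AP with control, two-sided, with Benjamini-Hochberg adjustment over 13684 probes, and a probe was called at an adjusted p below 0.05. The scanner tables used here have no mean spot signal, so the alternative with normexp background correction (offset 50) used the median spot signal. Other alternatives changed the scaling, the filter, the spots, the scans and the blocks. The fit was tested on 10 simulated data sets with 2 arrays per group and 200 changed probes. It called 76.4% of log2 changes of 3 and 0.5% of log2 changes of 1, with 3.2 false calls on average. In the data 7241 probes were called, far more than were changed there, so these shares do not carry over to it. Tables used pandas 2.3.3 and numpy 2.4.6 in Python 3.11.15, and plots matplotlib 3.10.9. Of 15323 coding probes, 14274 took a current symbol from a table of rat RefSeq genes.

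Named are the 8 largest called rises and falls, the 5 brightest members, both probes of the 6 elements with the brightest dimmer probe, and both probes of 17 elements taken from the literature; most of those are described by host gene or known role. Names that spell out a count, and the + and - pairs that differed most, were picked with values in view. The members and lists were chosen with earlier results of these data known. No element sequence or genome position was used here. The values of 1 marker gene are not reported here.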

Additional observations from a re-analysis of the deposited data

How the results depend on the processing

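With no scaling between arrays the median log2 fold change of the uc. transcripts was -0.43, with 19 higher and 67 lower; uc.63- was at -0.88, uc.162- at -0.05, uc.299+ at -0.003, uc.371- at -0.06, the + probe of the element in Pcbp2 at -0.90, the - probe of that in Thra at -0.91 and 1 further - probe of the literature elements at -0.81. Normexp background correction called 26, all higher, and 0 lower (limma; 3 at an unadjusted p below 0.05), and uc.1- was at 0.37, uc.181+ at 0.23, uc.379+ at 0.31, uc.408- at 0.27 and uc.472- at 0.27. Without the filter on detection 421 of the 962 were called, 410 of them higher, with a median of 0.86. With detection on all scans 4 were lower, with a median of 0.76 (0.18 over all probes so filtered). The 6 scans as separate replicates gave 139 calls, 123 higher and 16 lower, and the scan session as a block 15 lower. Leaving out 1 array at a time left 49 to 73 calls, 45 to 71 higher and 1 to 11 lower, the lowest without the second control array (49 calls) and, for falls, without AP 1 (1). Of the 26 named members called, 7 to 10 lost significance in these fits, in which the lone array was assumed to vary like the other group. With the replicate number as a block, 62 were called, 57 higher and 5 lower; the deviations of same-numbered arrays correlated with r = -0.221, so the numbers do not pair the arrays, and the crossed pairing, added after seeing the data, gave 96 calls, 87 higher and 9 lower. Quantile normalization, the deposited values, the median of spots, 1 spot per probe, marked spots kept and trend with robust variances left the total, the rises and the falls within 1.5 times of the values reported. For the fits without the filter, with separate scans, with blocks or with an array left out, no share over all probes is given. Their counts therefore do not show how members compare with other probes. Signal near background limits 733 of 962 members, which were not tested.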
